A study of Mus musculus with 8 samples.

Results

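SR proteins, hnRNPs and RBM proteins are RNA-binding proteins, most of which act on the splicing of pre-mRNA. Their transcripts were followed in the adult mouse retina during exposure to high oxygen (hyperoxia). The genes were taken by name, as every gene whose symbol starts with Srsf, Hnrnp or Rbm (without the Rbms genes), from probe sets that the array's annotation gives to a single gene. This gave 69 of the 18193 genes with such a probe set, and 193 of the 45037 probe sets tested: 10 Srsf genes with 33 probe sets, 19 Hnrnp genes with 58 and 40 Rbm genes with 102. Of the 40 Rbm symbols, *Rbm3os* and *Rbm46os* are antisense transcripts. A further 17 probe sets name such a gene together with another gene and were not used, which leaves out *Rbm3*, a cold-induced RNA-binding protein. *Srsf7*, *Rbm4* and *Rbm10* are not among the 69 either, so the families are not complete. RNA came from retinas of adult C57BL/6J mice, aged 80 to 120 postnatal days, raised in 12 h of dim light (5 lux) and 12 h of dark. The control mice (day 0) breathed normal air, and the others spent 3, 7 or 14 days in a chamber with 75% oxygen. All mice were of this strain, a wild-type one chosen by the study for photoreceptors that are vulnerable to oxygen. Each time has 2 arrays (Affymetrix GeneChips of the mouse genome), named here by the day and replicate on their labels. According to the methods, retinas of both sexes were pooled at each time. Whether the arrays of one time share a pool is not stated, and p-values here therefore measure only the spread between arrays, which may be technical.

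In splicing, introns are cut out of a pre-mRNA and the exons are joined by the spliceosome, and regulators bound to the RNA decide which exons are kept. SR proteins carry a domain rich in arginine and serine, bind exons and in most settings favor their inclusion, while hnRNPs coat the nascent transcript and often hold exons back. The RBM genes are a mixed group that shares an RNA recognition motif and includes parts of the spliceosome, of the exon junction complex and of RNA decay. Many of these genes also control their own mRNA, by splicing an exon with a stop codon or a retained intron into it. The retina is a tissue with much neuron-specific alternative splicing, and mutations in general splicing factors are a known cause of photoreceptor degeneration.

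The promoters of members are shown because several of these genes had low values side by side on the arrays. RefSeq entries (build GRCm38.p6, from 250 bases before the transcription start to 50 after it, 5′ to 3′ on the gene's strand) were found for 60 of the 69 genes by symbol. They were searched on both strands for 6 motifs, none of which contains another: CCGGAAG (ETS), TGACGTCA (CRE), GCATGCG (NRF1), AANATGGC (YY1), GGGCGG (SP1) and TATAAA, the box of core promoters. Capitals mark these motifs and no others. *Rbm39*, *Hnrnpa2b1*, *Srsf6* and *Rbmx* had both arrays of day 3 and both arrays of day 14 below both control arrays, *Rbm5* and *Rbm6* lie near each other on chromosome 9, and *Srsf3* is given as a gene with a higher mean at day 3.
Rbm39 (chr2:156179531-156179830, minus strand): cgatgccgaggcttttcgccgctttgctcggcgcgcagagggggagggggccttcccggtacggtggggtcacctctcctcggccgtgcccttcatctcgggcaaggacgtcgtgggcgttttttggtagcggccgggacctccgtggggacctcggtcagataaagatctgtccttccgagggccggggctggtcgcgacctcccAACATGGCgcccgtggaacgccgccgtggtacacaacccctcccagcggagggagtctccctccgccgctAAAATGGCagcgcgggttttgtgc
Hnrnpa2b1 (chr6:51469845-51470144, minus strand): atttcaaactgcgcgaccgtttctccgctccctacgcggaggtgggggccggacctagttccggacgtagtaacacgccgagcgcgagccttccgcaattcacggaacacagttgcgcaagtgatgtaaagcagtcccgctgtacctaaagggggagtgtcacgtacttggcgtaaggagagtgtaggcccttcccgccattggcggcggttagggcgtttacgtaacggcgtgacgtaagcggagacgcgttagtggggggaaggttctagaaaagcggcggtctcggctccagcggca
Srsf6 (chr2:162931258-162931557, plus strand): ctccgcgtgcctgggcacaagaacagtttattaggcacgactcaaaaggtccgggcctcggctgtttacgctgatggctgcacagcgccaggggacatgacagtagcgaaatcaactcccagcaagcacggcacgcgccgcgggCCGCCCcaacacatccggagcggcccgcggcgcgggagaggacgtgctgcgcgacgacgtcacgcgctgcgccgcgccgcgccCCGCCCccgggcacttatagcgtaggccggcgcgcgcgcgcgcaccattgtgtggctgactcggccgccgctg
Rbmx (chrX:57392987-57393286, minus strand): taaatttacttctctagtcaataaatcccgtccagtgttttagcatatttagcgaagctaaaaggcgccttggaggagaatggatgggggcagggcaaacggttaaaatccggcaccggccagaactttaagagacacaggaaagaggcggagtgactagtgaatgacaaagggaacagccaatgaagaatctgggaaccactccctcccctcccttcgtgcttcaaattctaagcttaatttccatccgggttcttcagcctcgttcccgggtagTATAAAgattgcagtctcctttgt
Rbm5 (chr9:107770953-107771252, minus strand): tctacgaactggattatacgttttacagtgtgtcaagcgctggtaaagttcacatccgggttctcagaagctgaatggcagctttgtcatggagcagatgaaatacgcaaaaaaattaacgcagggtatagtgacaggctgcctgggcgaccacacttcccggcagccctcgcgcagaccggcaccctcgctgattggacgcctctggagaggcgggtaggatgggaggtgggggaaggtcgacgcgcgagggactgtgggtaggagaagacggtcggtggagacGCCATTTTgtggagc
Rbm6 (chr9:107872770-107873069, minus strand): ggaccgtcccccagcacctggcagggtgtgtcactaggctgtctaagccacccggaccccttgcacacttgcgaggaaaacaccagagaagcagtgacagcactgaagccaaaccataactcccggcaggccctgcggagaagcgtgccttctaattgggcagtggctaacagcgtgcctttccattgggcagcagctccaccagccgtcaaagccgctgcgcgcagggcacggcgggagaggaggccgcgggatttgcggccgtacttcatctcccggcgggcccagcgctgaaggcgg
Srsf3 (chr17:29032410-29032709, plus strand): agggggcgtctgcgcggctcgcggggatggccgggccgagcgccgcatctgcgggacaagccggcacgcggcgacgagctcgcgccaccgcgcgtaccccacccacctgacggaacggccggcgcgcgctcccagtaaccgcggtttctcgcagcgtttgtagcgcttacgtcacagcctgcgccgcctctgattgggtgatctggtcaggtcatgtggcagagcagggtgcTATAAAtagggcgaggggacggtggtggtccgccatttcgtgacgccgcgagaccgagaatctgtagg
*Rbm39* and *Hnrnpa2b1* each have 2 entries, of which 1 is printed. Shares were counted over the first entry of each gene, which for *Rbm39* is the one not printed and holds none of the 6 motifs. The YY1 letters were present in 12 of the 60 member promoters (20.0%) and in 7.20% of the 14452 promoters of genes on the array. For the other motifs the shares were 18.3% against 13.8% (ETS), 0% against 2.68% (CRE), 3.33% against 5.31% (NRF1), 60.0% against 54.0% (SP1) and 15.0% against 9.87% (TATAAA). The member promoters had a median of 25 CG dinucleotides and 62.0% G and C, against 17 and 58.7% over all genes on the array. Within the printed set, the second entry of *Rbm39* and *Rbm5* hold the YY1 letters, *Srsf6* holds SP1 letters, and *Rbmx* and *Srsf3* hold TATAAA. In *Srsf3* TATAAA lies before the listed transcription start, and in *Rbmx* after it, within the last 50 bases. A match to such letters is a description and not a binding site.

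The deposited values are log2 values centred on each probe set's median over the 8 arrays, so they give differences between arrays and no level of expression. The labelled tissue could therefore not be checked by level. The second arrays of day 3 and of day 14 by their labels (day 3 replicate 2, day 14 replicate 2) stood apart from the other 6. On them the value of the 3′ probe set of *Gapdh* minus its 5′ probe set, a measure of how far the labeled RNA reaches from the 3′ end, was 1.19 and 1.43, against -0.32 to 0.12 elsewhere, and that of bacterial poly-A controls added before labeling (mean of 4) was 0.93 and 1.22 against -1.41 to -0.12. Of 12 gliosis genes 11 were higher on both than on any other array (list medians 1.50 to 1.69 against -0.43 to 0.30), as were 11 of 13 microglia and macrophage genes (0.98 to 1.05 against -0.24 to 0.30). The medians of 12 rod genes were -0.36 and -0.30 there and -0.36 to 0.10 elsewhere, and those of 14 lens genes were -0.85 and -0.79 against -2.09 to 3.49. The 6 cornea genes had medians of -1.12 and 0.00 there and -1.41 to 2.04 elsewhere. *Gfap*, the filament gene of reactive glia, had 2.56 and 2.18 there and -1.09 to 0.36 elsewhere. The labels of day 3 replicate 2 and of day 14 replicate 1 are in doubt. By the quality measures that the study tabulates, *Gapdh* set apart both arrays of the latest time and neither array of the earliest time in oxygen. In the deposited values it set apart day 3 replicate 2 and not day 14 replicate 1 (0.05). Whether a label is wrong could not be settled here, and the arrays were kept as labelled, so each mean of day 3 and of day 14 holds 1 array whose day is uncertain (day 3 replicate 2 or day 14 replicate 1). The part of any of these in the results that follow was not tested.

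As a group, and with the arrays taken as labelled, the splicing regulators had lower means than the controls at day 3 and day 14 and not at day 7. The differences were small, and no gene mean differed from day 0 by 2-fold at any time. At day 3, 45 of the 69 genes were lower than at day 0, with a median log2 fold (the difference of group means) of -0.14, while over all genes 40.8% were lower and the median was 0.06. At day 7, 26 were lower, with a median of 0.02 (all genes, -0.01). At day 14, 42 were lower, with a median of -0.07, against 36.0% and 0.08 over all genes. With 2 arrays at a time, none of the 69 passed an adjusted p under 0.05 in limma at day 3 (lowest adjusted p = 0.427), day 7 (1.0) or day 14 (0.595), and the share of all genes that passed was 0% in each of these comparisons. In bulk tissue, fewer cells of a type and less RNA per cell cannot be told apart.

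Without correction for the number of genes, limma gave an unadjusted p under 0.05 to 8 members that were lower and 0 that were higher at day 3, where 4.61% of all genes were lower and 6.38% higher by the same rule. They were *Rbmx*, *Srsf6*, *Rbm39*, *Hnrnpul2*, *Hnrnpa2b1*, *Srsf1*, *Hnrnpdl* and *Rbm12*. At day 7 there were 0 of 69, against 0.797% of all genes in either direction. At day 14 there were 13 lower, against 3.56% of all genes, and *Rbm42* was higher, against 4.45%. The 13 were *Rbm39*, *Hnrnpr*, *Hnrnpa2b1*, *Rbm26*, *Rbm25*, *Rbm5*, *Srsf11*, *Rbmx*, *Rbm34*, *Srsf6*, *Rbm6*, *Hnrnpu* and *Hnrnph1*. These counts depend on single arrays. The 13 lower at day 14 became 1 (*Rbm39*) without day 14 replicate 2, where 1.11% of all genes were lower by this rule, and 2 without day 0 replicate 2 (1.45%). They were 10, all among the 13, when day 14 replicate 2 was removed together with day 3 replicate 2 (1.81%). The 8 at day 3 became 0 without day 0 replicate 2 (1.69%). Without day 3 replicate 2 they became 14 lower and 4 higher (*Srsf3*, *Rbm7*, *Rbm12b1* and *Rbm41*), where 9.56% of all genes were lower and 10.3% higher, and 4 of the 8 were among the 14.

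Counted by order alone, 28 members (40.6%) had both day 3 arrays below both control arrays, and 6 had both above, against 16.1% and 28.2% of all genes. At day 7 the counts were 4 below and 6 above, against 13.1% and 12.1% of all genes. At day 14, 27 (39.1%) lay below and 11 above, against 15.2% and 33.5%. The share of members on the lower side was thus above that of all genes at day 3 and day 14 and under it at day 7, a description with no test. Without day 3 replicate 2 and day 14 replicate 2, 50 of the 69 genes were lower at day 3 (median -0.21, all genes 0.03) and 39 at day 14 (median -0.06, all genes 0.05). When the arrays of uncertain day, day 3 replicate 2 and day 14 replicate 1, were removed instead, 50 were lower at day 3 (median -0.21) and 45 at day 14 (median -0.13, all genes 0.10). By unadjusted p, 16 were then lower and 4 higher at day 3 (10.1% and 11.0% of all genes) and 17 lower and 2 higher at day 14 (7.23% and 12.0%), of which 12 were among the 13 above, and 0 passed an adjusted p. A time with 1 array is assumed here to vary like the others. All 3 comparisons use the same control arrays.

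**Figure D1:**
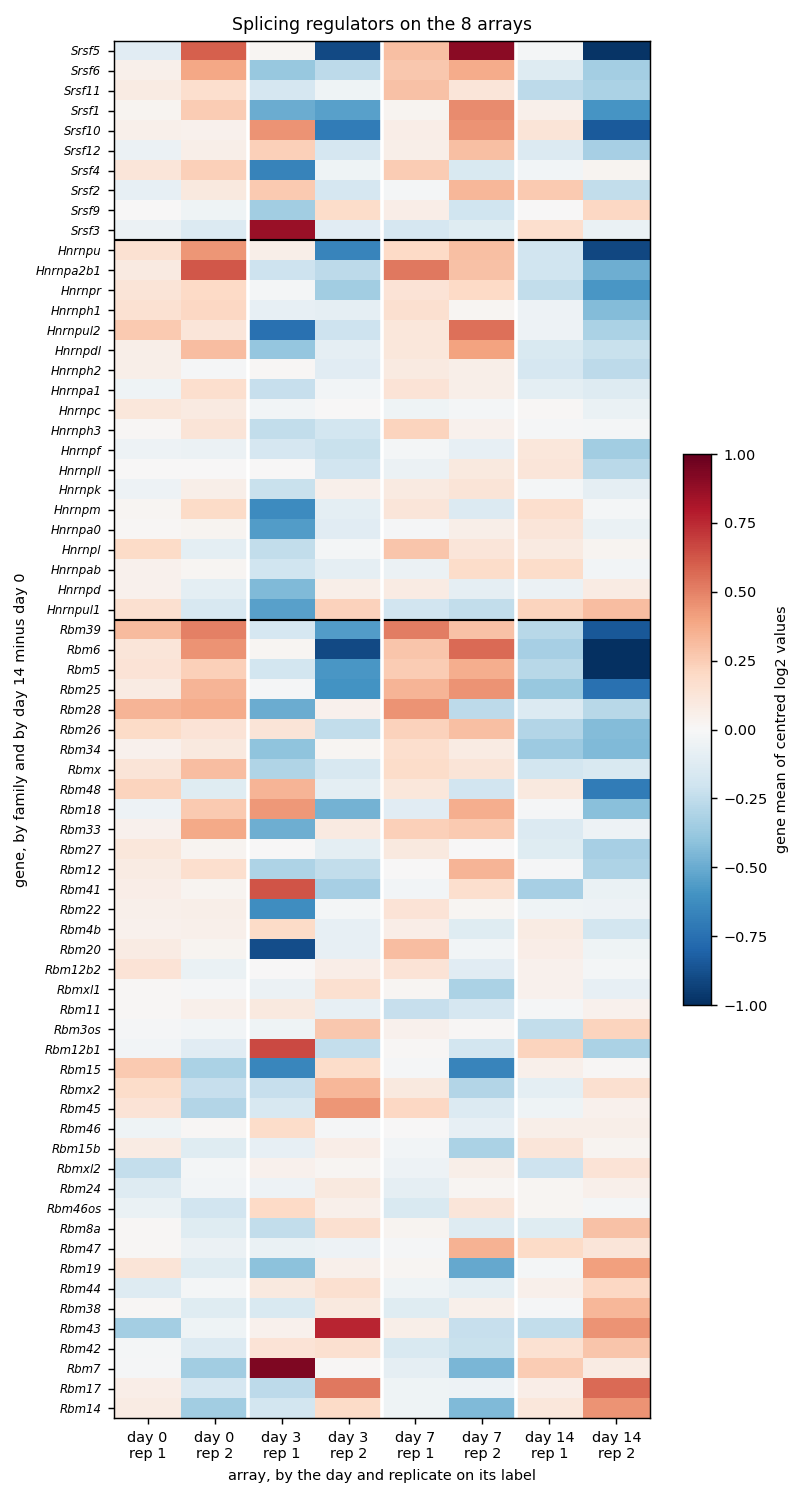
Gene means (centred log2 values, colour scale from -1 to 1) of the 69 splicing regulators on the 8 arrays, grouped as Srsf, Hnrnp and Rbm and sorted within each family by the difference of day 14 and day 0. The lowest values lie on the arrays labelled day 3 replicate 1, day 3 replicate 2 and day 14 replicate 2, and *Rbm39* was negative on all 4 arrays of day 3 and day 14.

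**Figure D2:**
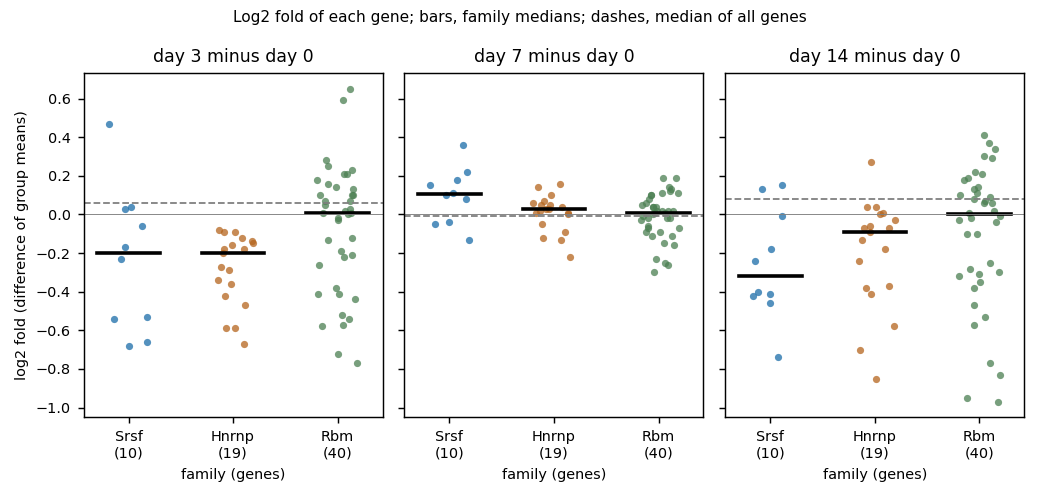
Log2 fold of each gene against day 0 at 3, 7 and 14 days (points, 10 Srsf, 19 Hnrnp and 40 Rbm genes), with the family median (bar) and the median of all genes (dashes). All 19 Hnrnp genes lie below 0 at day 3, and at day 14 the family medians are -0.32 (Srsf), -0.09 (Hnrnp) and 0.00 (Rbm).

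Among the SR proteins, 7 of 10 genes had a lower mean at day 3 (median log2 fold -0.20), 3 at day 7 (0.10) and 8 at day 14 (-0.32). Over all genes 40.8%, 51.9% and 36.0% were lower at these times. The day 14 arrays differed, with a family median of -0.01 on replicate 1 and -0.33 on replicate 2, against 0.01 and 0.14 on the control arrays. *Srsf6*, a regulator of alternative exons, had gene means of 0.05 and 0.39 on the control arrays, -0.38 and -0.26 at day 3, then 0.27 and 0.37 at day 7 and -0.13 and -0.34 at day 14. The arrays of day 3 and of day 14 lay below both controls, and those of day 7 overlapped them. The log2 fold of *Srsf6* was -0.54 ± 0.16 (SE, n = 2 arrays a time) at day 3 (limma adjusted p = 0.427), 0.10 at day 7 and -0.46 at day 14. *Srsf11*, a larger protein of the SR family, stood at 0.08 and 0.17 in the controls, -0.17 and -0.04 after 3 days, 0.29 and 0.12 after 7 and -0.26 and -0.32 after 14. Its day 3 and day 14 arrays were all below the controls, with log2 folds of -0.23 and -0.42.

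*Srsf1*, the founding SR protein, had 0.03 and 0.25 in the controls, -0.50 and -0.54 at day 3, then 0.03 and 0.47 at day 7 and 0.05 and -0.59 at day 14. Both day 3 arrays were low, and the day 14 arrays parted, one among the controls and the other at the level of day 3. Its log2 fold was -0.66 at day 3 and -0.41 at day 14. *Srsf5* differed widely between arrays of a time, with -0.11 and 0.60 in the controls, 0.02 and -0.90 after 3 days, 0.30 and 0.90 after 7 and -0.02 and -0.98 after 14. Its low values were those of day 3 replicate 2 and day 14 replicate 2 alone. *Srsf10*, a splicing repressor once it loses its phosphates, had 0.45 and -0.70 at day 3, was at 0.13 and -0.84 at day 14, and lay from 0.04 to 0.45 on the other 4 arrays, so it was low on the same arrays. *Srsf12* (-0.17 and -0.33) and *Srsf2* (-0.17 and -0.25), which binds exonic enhancers, were also lowest there.

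*Srsf4* followed another array. It was at -0.67 on day 3 replicate 1, at -0.04 on the second array of that day and from -0.15 to 0.25 on the 6 arrays of the other times. *Srsf3*, the smallest SR protein and an adaptor for mRNA export, went the other way on that array, with 0.86 on day 3 replicate 1 and -0.17 to 0.17 on the other 7. Its log2 fold was 0.47 at day 3 and 0.15 at day 14, and the arrays of each overlapped the controls. *Srsf9* was highest on day 3 replicate 2 (0.18) and on day 14 replicate 2 (0.21), the other 6 lying from -0.35 to 0.07, and log2 folds of -0.06 and 0.13.

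**Figure D3:**
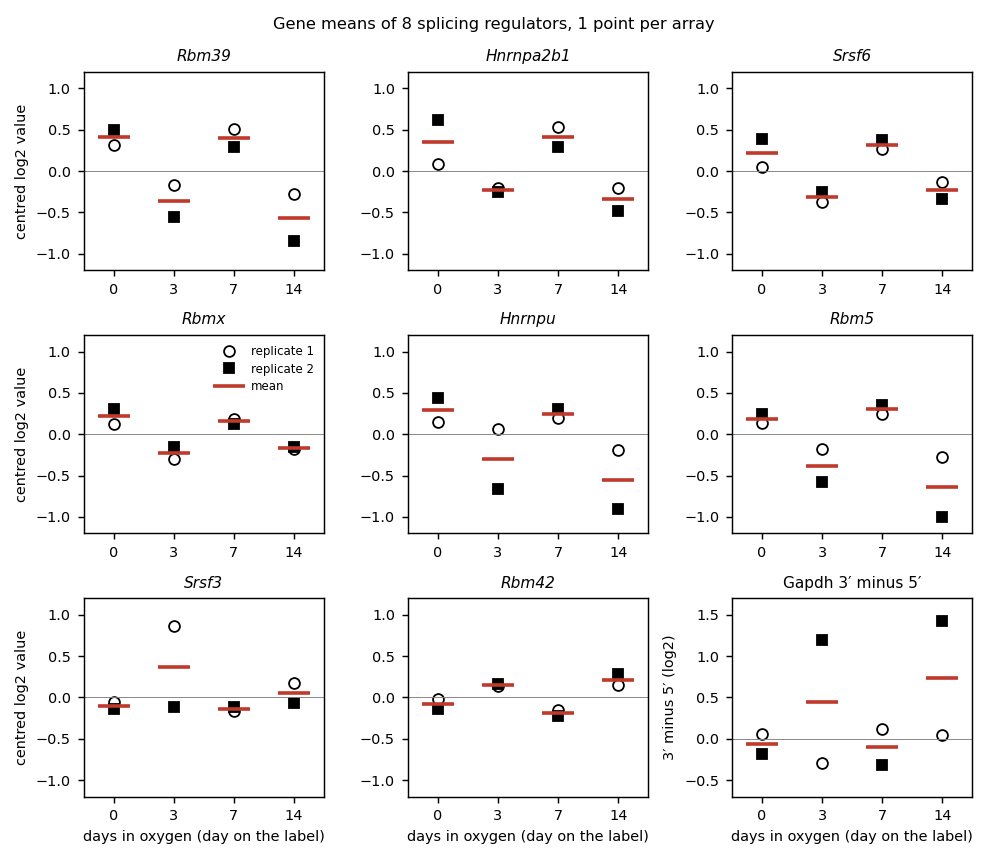
Gene means of 8 splicing regulators and the 3′ minus 5′ difference of Gapdh (centred log2 values) at each labelled day (replicate 1 as open circles, replicate 2 as filled squares, red bars for the mean of 2 arrays). *Rbm39*, *Hnrnpa2b1*, *Srsf6*, *Rbmx*, *Hnrnpu* and *Rbm5* have both arrays of day 3 and of day 14 below the controls. The Gapdh difference is high on 1 array of each of these times (1.19 and 1.43).

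All 19 hnRNP genes had a lower mean at day 3 than at day 0, by -0.08 to -0.67 (median -0.20), where 40.8% of all genes were lower. Of these, 12 (63.2%) had both arrays below both controls, against 16.1% of all genes. Leaving out day 3 replicate 2, 18 of 19 were lower (median -0.29), and leaving out day 3 replicate 1, 16 of 19 (-0.17). At day 7, 5 of 19 were lower (median 0.03), and at day 14, 14 of 19 (-0.09). At day 14, 10 (52.6%) had both arrays below both controls, against 15.2% of all genes. After removal of day 14 replicate 2 the day 14 count was 12 (-0.09).

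*Hnrnpa2b1*, which packages pre-mRNA and carries mRNAs into cell processes, had 0.09 and 0.62 in the controls, -0.21 and -0.26 at day 3, then 0.53 and 0.29 at day 7 and -0.20 and -0.49 at day 14. Every array of day 3 and day 14 was below 0 and every array of day 0 and day 7 above it. Its log2 fold was -0.59 ± 0.20 (SE) at day 3 (limma adjusted p = 0.427) and -0.70 ± 0.20 at day 14 (adjusted p = 0.613). *Hnrnpr*, which binds mRNAs in axons, had 0.13 and 0.20 in the controls, -0.02 and -0.35 after 3 days, 0.14 and 0.20 after 7 and -0.25 and -0.58 after 14. It gave log2 folds of -0.34 at day 3 and -0.58 ± 0.17 at day 14 (adjusted p = 0.61), with both arrays of each time below the controls.

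*Hnrnpu*, a nuclear scaffold protein that binds RNA and chromatin, stood at 0.15 and 0.44 in the controls, 0.06 and -0.66 at day 3, then 0.20 and 0.30 at day 7 and -0.19 and -0.91 at day 14. Its log2 folds of -0.59 and -0.85 came mostly from day 3 replicate 2 and day 14 replicate 2. Without these it was -0.48 at day 14. *Hnrnpul2*, a relative of *Hnrnpu* with a part in DNA repair, had its lowest value on the other day 3 array, with 0.26 and 0.12 in the controls, -0.75 and -0.21 after 3 days, 0.11 and 0.55 after 7 and -0.05 and -0.32 after 14. It differed by -0.67 ± 0.23 at day 3 (adjusted p = 0.427) and by -0.38 at day 14. *Hnrnpdl* had log2 folds of -0.42 and -0.37 at day 3 and day 14, and *Hnrnph1*, which binds runs of G, -0.27 and -0.41, each with both arrays below the controls.

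*Hnrnpm* (-0.63), *Hnrnpa0* (-0.56), *Hnrnpul1* (-0.54) and *Hnrnpd* (-0.44), a factor in the decay of AU-rich mRNAs, were lowest on day 3 replicate 1. On the day 14 arrays these 4 genes lay between -0.07 and 0.31, and their log2 folds at day 14 were -0.03, 0.00, 0.27 and 0.04. The low values of this subset thus belonged to a single array. *Hnrnpa1*, *Hnrnpk*, *Hnrnpc*, *Hnrnpl*, *Hnrnpab*, *Hnrnpf*, *Hnrnph2*, *Hnrnph3* and *Hnrnpll* had log2 folds of -0.08 to -0.29 at day 3 and of -0.24 to 0.04 at day 14. Of these, *Hnrnph3* had the lowest log2 fold at day 3 (-0.29, both arrays below the controls) and *Hnrnph2* the lowest at day 14 (-0.24, both arrays below).

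The Rbm genes divided. At day 3, 19 of 40 had a lower mean (median 0.01), at day 7, 18 (0.01), and at day 14, 20 (0.00). Among the lower ones were the widest differences of all 69. *Rbm39*, a coactivator and a relative of the splicing factor U2AF, had gene means of 0.32 and 0.50 in the controls, -0.17 and -0.56 at day 3, then 0.51 and 0.29 at day 7 and -0.28 and -0.85 at day 14. Both arrays of day 3 and of day 14 lay below all 4 arrays of day 0 and day 7. The log2 fold was -0.77 ± 0.23 at day 3 (limma adjusted p = 0.427), -0.01 at day 7 and -0.97 ± 0.23 at day 14 (adjusted p = 0.595). When day 3 replicate 2 and day 14 replicate 2 were left out, these differences were -0.58 and -0.69.

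*Rbm25*, which guides the choice of 5′ splice sites, had 0.08 and 0.34 in the controls, -0.01 and -0.60 after 3 days, 0.34 and 0.45 after 7 and -0.38 and -0.75 after 14. It stood at log2 folds of -0.52 at day 3 and -0.77 ± 0.23 at day 14 (adjusted p = 0.613). *Rbm5*, which acts on the splicing of cell death genes, had 0.14 and 0.24 in the controls, -0.18 and -0.58 at day 3, then 0.25 and 0.36 at day 7 and -0.28 and -1.0 at day 14. *Rbm6*, its neighbor and relative, had 0.12 and 0.45, 0.02 and -0.90, 0.28 and 0.57, and -0.33 and -1.0 at the same times. In all 3 genes the arrays of day 3 and day 14 lay below both controls, and the array labelled replicate 2 was the lower of each pair. Log2 folds were -0.57 and -0.83 for *Rbm5* and -0.72 and -0.95 for *Rbm6* at day 3 and day 14.

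*Rbmx*, the X-linked gene of hnRNP G, differed less between replicates, with 0.13 and 0.31 in the controls, -0.30 and -0.16 after 3 days, 0.18 and 0.13 after 7 and -0.18 and -0.15 after 14. It had a log2 fold of -0.44 ± 0.13 at day 3 (adjusted p = 0.427) and -0.38 at day 14. These are means of 4 probe sets that differed, from -0.85 to -0.03 at day 3 and from -0.76 to 0.12 at day 14 (3 lower, 1 higher). *Rbm26*, which takes part in the decay of nuclear RNA, had 0.19 and 0.14 in the controls, 0.13 and -0.25 at day 3, then 0.23 and 0.30 at day 7 and -0.29 and -0.43 at day 14. Its day 7 arrays lay above both controls and its day 14 arrays below them, with a log2 fold of -0.53 ± 0.16 at day 14 (adjusted p = 0.613). *Rbm34* (-0.47) and *Rbm28* (-0.57), proteins of the nucleolus, had log2 folds of this size at day 14 with both arrays below the controls, and *Rbm12* had -0.41 at day 3.

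*Rbm20*, known for the splicing of titin in the heart, and *Rbm22*, a part of the active spliceosome, were low on day 3 replicate 1 alone (-0.89 and -0.62), and lay between -0.08 and 0.31 on the other 7 arrays. On the same array *Rbm7*, a subunit of a complex that feeds RNA to the nuclear exosome, had its highest value (0.93), as did *Rbm12b1* (0.66) and *Rbm41* (0.63). *Rbm7* had -0.01 and -0.35 in the controls, 0.93 and 0.01 after 3 days, -0.09 and -0.46 after 7 and 0.25 and 0.08 after 14. It was above both controls at day 3, by 0.65 ± 0.30 (adjusted p = 0.473).

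Higher values with both arrays above the controls at day 14 were found for 9 of the 40 Rbm genes, where 33.5% of all genes met this rule. *Rbm42*, an RNA-binding partner of hnRNP K, had -0.02 and -0.14 in the controls, 0.14 and 0.16 at day 3, then -0.15 and -0.22 at day 7 and 0.15 and 0.28 at day 14. Both arrays of every time lay on one side of the controls, with log2 folds of 0.23 ± 0.12 at day 3 (adjusted p = 0.5), -0.11 at day 7 and 0.30 ± 0.12 at day 14 (adjusted p = 0.621). *Rbm14*, a protein of paraspeckles, had 0.08 and -0.35 in the controls and 0.11 and 0.45 at day 14 (log2 fold 0.41 ± 0.23, adjusted p = 0.643). *Rbm17*, which selects 3′ splice sites, had 0.07 and -0.17 in the controls and 0.07 and 0.57 at day 14 (0.37 ± 0.28, adjusted p = 0.696). *Rbm43* (0.59 ± 0.31, adjusted p = 0.499), *Rbm46os* (0.25 ± 0.14, adjusted p = 0.521) and *Rbm44* (0.21 ± 0.12, adjusted p = 0.531) were above both controls at day 3. At day 14 *Rbm44* had 0.21 ± 0.12 (adjusted p = 0.656) and *Rbm38*, a target of p53 that stabilizes mRNAs, 0.22 ± 0.17 (adjusted p = 0.695). *Rbm47*, a cofactor of mRNA editing, stood at 0.18 and *Rbmxl2*, a relative of *Rbmx* used in the testis, at 0.10. The day 14 arrays of *Rbm38* and of *Rbmxl2* overlapped the controls. *Rbm8a*, a core protein of the exon junction complex, had log2 folds of 0.02, 0.01 and 0.14 at day 3, day 7 and day 14, with arrays that overlapped the controls.

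At day 7 no member stood out. Log2 folds of the 69 ran from -0.30 to 0.36, and the adjusted p was 1.0 for all. *Rbm11*, a tissue-restricted splicing regulator, had the smallest p of the lower ones, with -0.23 and -0.17 against 0.01 and 0.05 in the controls (-0.23 ± 0.12). The other lower ones by this order were *Hnrnpc* (-0.13 ± 0.11), *Rbm15b* (-0.16 ± 0.15), *Rbm28* (-0.26 ± 0.26) and *Rbm19* (-0.25 ± 0.25). The higher ones were *Rbm47* (0.19 ± 0.15), *Hnrnpl* (0.16 ± 0.15), *Srsf12* (0.18 ± 0.18), *Rbmxl2* (0.13 ± 0.16) and *Rbm25* (0.19 ± 0.23). Of these 10, *Rbm11* and *Hnrnpc* had both arrays on one side of the controls.

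The times in oxygen were also set against each other. From day 3 to day 7, 41 of 69 genes were higher (median 0.14, all genes -0.06), with 14 higher and 2 lower at an unadjusted p under 0.05 in limma, against 5.65% and 8.76% of all genes. The 14 included *Srsf6* (0.64), *Srsf1* (0.77), *Hnrnpul2* (0.81), *Hnrnpa2b1* (0.65) and *Rbm39* (0.76), and the 2 lower were *Rbm42* (-0.33) and *Rbm7* (-0.74). From day 7 to day 14, 45 were lower (median -0.09, all genes 0.08), with 15 lower and 1 higher (*Rbm42*, 0.40) at that p, against 4.62% and 6.83% of all genes. *Rbm6* (-1.09) and *Srsf5* (-1.10) were lower by 2-fold there, as were 0.835% of all genes, and *Srsf5* was higher by 2-fold from day 3 to day 7 (1.04), as were 0.753%. Between day 3 and day 14 the median was 0.00 with 35 lower, and 0 members had an unadjusted p under 0.05, against 3.08% of all genes. Without day 3 replicate 2 and day 14 replicate 1, the arrays of uncertain day, 15 were lower and 12 higher at that p from day 3 to day 14 (8.59% and 12.4% of all genes). With all arrays, in all 3 comparisons 0 members and 0% of all genes passed an adjusted p under 0.05 (lowest among members 0.285, 0.41 and 0.983).

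The genes were measured by 1 to 12 probe sets (sets of short probes, most of them designed toward a transcript's 3′ end), and these did not always move together. Of the 46 members with 2 or more probe sets, 18 had all of them lower at day 14 (39.1%, against 19.4% of 9010 such genes on the array), 7 had all higher (15.2% against 32.0%) and 21 were mixed (45.7% against 48.6%). At day 3 the counts were 16 all lower (34.8% against 22.0%), 6 all higher (13.0% against 28.5%) and 24 mixed (52.2% against 49.5%). At day 7 they were 5 all lower (10.9% against 21.8%), 8 all higher (17.4% against 18.8%) and 33 mixed (71.7% against 59.4%). *Srsf6* (4 probe sets), *Hnrnpa2b1* (4), *Hnrnpdl* (7), *Hnrnpu* (5), *Rbm25* (6), *Rbm5* (5) and *Rbm6* (3) had every probe set lower at day 3 and at day 14. The median correlation between a gene's probe sets across the 8 arrays (Pearson's r) was 0.37 over the 46 members and 0.22 over all such genes, from -0.73 for *Hnrnpll* to 0.92 for *Hnrnpa2b1*. Its points share the 8 arrays, and it is a description.

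The log2 folds of a gene's probe sets at day 14 spread by up to 2.46, the value for *Rbm39*, followed by *Srsf1* (1.60), *Hnrnpu* (1.17), *Rbm18* (1.12) and *Rbm27* (1.07). Of the 12 probe sets of *Rbm39*, 10 were lower at day 3 and 11 at day 14, of which 5 and 8 by 2-fold. They ranged from -1.84 to 0.62 at day 14. The probe set at 0.62 (0.66 at day 3) is the only one of the 12 whose listed record is an mRNA, and some of the others have no record listed. It stood at 0.05 and -1.04 in the controls, 0.38 and -0.04 after 3 days, -0.43 and -1.31 after 7 and 0.19 and 0.04 after 14. By this probe set alone, then, *Rbm39* would be higher at day 3 and at day 14. The lowest, from an expressed sequence tag (EST), stood at 0.39 and 1.36, -0.63 and -0.78, 0.85 and 1.30, and -0.39 and -1.54 at the same times. For *Srsf1* 1 of 7 probe sets gave the spread, with -2.04 and -2.45 on day 3 replicate 2 and day 14 replicate 2, and the other 6 had log2 folds of -0.51 to -0.02 at day 14. For *Srsf3*, 5 of 6 probe sets were higher at both times (0.51 to 0.65 at day 3) and the other was lower (-0.04 and -0.34).

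**Figure D4:**
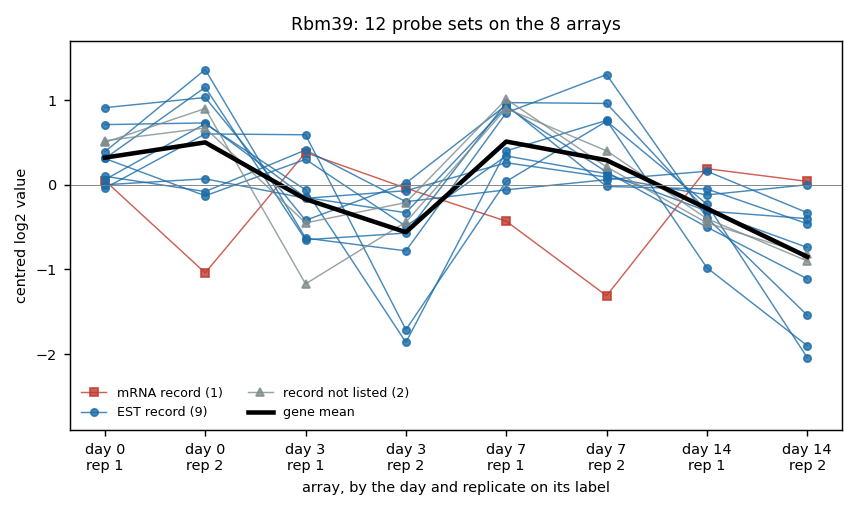
The 12 probe sets of *Rbm39* (centred log2 values) on the 8 arrays, by the kind of record they were designed from (red squares, 1 mRNA record; blue circles, 9 EST records; grey triangles, 2 with no record listed), with the gene mean as a thick line. The gene mean is above 0 on the arrays of day 0 and day 7 and below 0 on those of day 3 and day 14, and the mRNA probe set has the opposite sign on 6 of the 8.

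**Figure D5:**
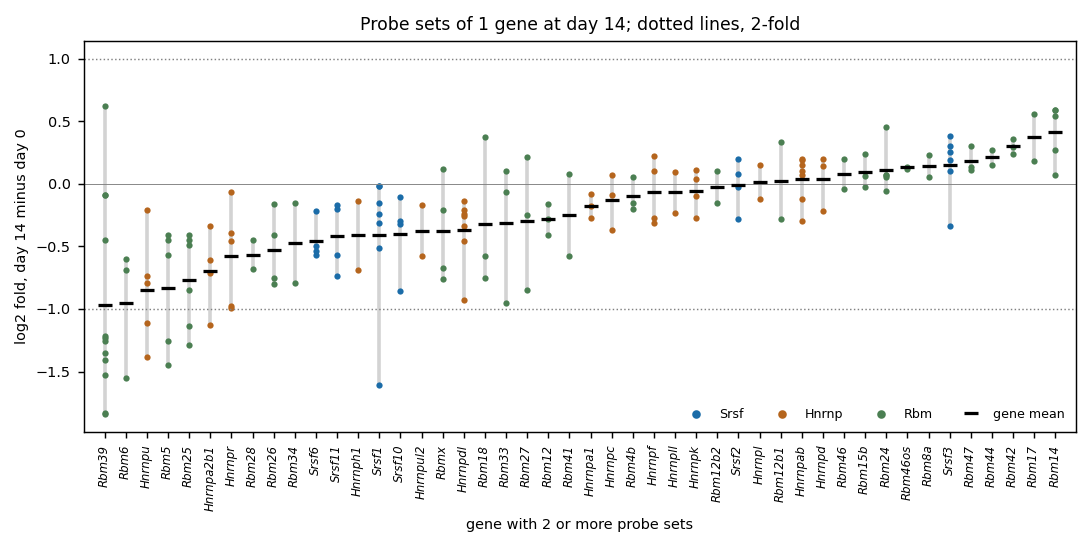
Log2 fold of every probe set at day 14 against day 0 for the 46 genes with 2 or more (points, coloured by family; black bars, gene mean; grey lines, range; dotted lines, 2-fold). *Rbm39* has the widest range (-1.84 to 0.62), and points past 2-fold lie on the lower side alone.

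By probe set, 9 of 193 were lower by 2-fold at day 3, 0 at day 7 and 17 at day 14, and 0 were higher by 2-fold at any time. Over all probe sets 1.1%, 0.0844% and 1.84% were lower by 2-fold at these times, and 0.429%, 0.209% and 0.271% higher. The kind of record behind a probe set went with its log2 fold at day 14. The median was -0.03 over the 63 designed from mRNA records, -0.17 over the 106 from ESTs and -0.41 over the 24 with no record listed, against 0.08, 0.02 and 0.09 over all single-gene probe sets of each kind. Of the 17 at day 14, 1 was from an mRNA record, 11 from ESTs and 5 not listed. The place of the probe sets within the transcripts, in exons or introns, was not analysed here. From mRNA records alone, 39 members remained, of which 26 were lower at day 3 (median -0.15) and 23 at day 14 (-0.03).

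The low values sat on particular arrays. The 69 genes had their lowest value on day 3 replicate 1 in 24 cases (34.8%, against 21.4% of all genes) and on day 14 replicate 2 in 24 (34.8% against 12.0%), while 10 were lowest on day 7 replicate 2 (14.5% against 20.7%) and 1 on day 3 replicate 2 (1.45% against 7.31%). Both day 3 replicate 2 and day 14 replicate 2 were below the other 6 arrays for 17 members (24.6%, against 9.01% of all genes), among them *Rbm39*, *Rbm25*, *Rbm5*, *Rbm6*, *Hnrnpa2b1*, *Hnrnpr*, *Hnrnpu*, *Srsf1*, *Srsf5* and *Srsf10*. Above the other 6 they were for 11 members (15.9%, against 19.5%), among them *Rbm14*, *Rbm17*, *Rbm38*, *Rbm42*, *Rbm8a* and *Srsf9*. These are the arrays on which the gliosis and microglia genes and the 3′ minus 5′ differences were high. *Srsf6* and *Rbmx* are not among the 17, since day 3 replicate 1 was their lowest array.

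Genes that work with the members were described from lists of symbols. Over all genes 40.8% had a lower mean at day 3 and 36.0% at day 14. Of 9 kinases of SR proteins, 7 had a lower mean at day 3 (median -0.36) and 7 at day 14 (-0.40), with a median of 0.04 at day 7. By array, the kinase median was -0.06 on day 3 replicate 1 and -0.08 on day 14 replicate 1. It was -0.49 on day 3 replicate 2 and -0.49 on day 14 replicate 2, the arrays that stood apart. *Clk2*, which phosphorylates SR proteins in the nucleus, had 0.15 and 0.29 in the controls, -0.54 and -0.27 at day 3, then 0.16 and 0.03 at day 7 and -0.03 and -0.34 at day 14. *Clk4* ranged from -1.19 on day 3 replicate 2 to 0.66 on day 3 replicate 1. Of 17 SR-like genes, 15 were lower at day 3 (median -0.32) and 15 at day 14 (-0.44). Here *Snrnp70*, the U1 protein that SR proteins contact, had 0.15 and 0.37 in the controls, -0.49 and -0.26 after 3 days, 0.33 and 0.28 after 7 and -0.27 and -0.23 after 14. *Tra2a*, a partner of SR proteins, had 0.17 and 0.25, -0.13 and -0.39, 0.16 and 0.17, and -0.19 and -0.43. In these 3 genes the arrays of day 3 and day 14 were below both controls.

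Of 53 other regulators measured from a list of 55, 40 were lower at day 3 (median -0.16) and 35 at day 14 (-0.11). *Malat1*, a long nuclear RNA of the speckles in which splicing factors are stored, had the lowest log2 folds among them. It had 0.50 and 0.66 in the controls, -0.52 and -0.17 at day 3, then 0.59 and 0.38 at day 7 and -0.61 and -0.54 at day 14, and its log2 folds were -0.93 ± 0.16 at day 3 (adjusted p = 0.427) and -1.15 ± 0.16 at day 14 (adjusted p = 0.588). All arrays of day 3 and day 14 lay below all arrays of day 0 and day 7. *Elavl3*, a neuronal RNA-binding protein, had -0.48 and -0.44 at these times, and *Celf3*, another neuronal one, 0.25 and 0.66. A core spliceosome list was taken by name alone, as symbols that start with Snrp, Sf3, Prpf or Lsm. Of its 42 genes, 17 were lower at day 3 (median 0.07) and 16 at day 14 (0.08), close to the medians of all genes (0.06 and 0.08). These medians cover a mixed list, with log2 folds from -0.67 to 1.16 at day 3 and from -1.28 to 0.63 at day 14. Most Prpf genes were lower at both times, such as *Prpf39* (-0.65 and -1.28) and *Prpf8* (-0.67 and -0.42). Most Snrp genes were higher, such as *Snrpe* (0.99 and 0.63) and *Snrpg* (0.87 and 0.53). The rule by name leaves out *Snrnp70*, given above as SR-like and lower at both times, and takes in *Prpf4b*, which is also among the kinases. None of the genes of these 4 lists passed an adjusted p under 0.05.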

How the data were processed

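The arrays were hybridized with biotin-labeled cRNA made from 500 ng of total RNA, and each was grouped by the day in its title. The authors obtained the deposited log2 values with RMA, which corrects background, quantile-normalizes and summarizes probes (its version is not given in the sources used here). Each probe set's median across the arrays (8) is 0 to within 1e-06, a centring that the labels do not describe, so no filter on signal was possible. The methods describe MAS5 values and a 2-fold criterion, which were not repeated here. Control probe sets (64) were set aside. Probe sets with a single symbol in GEO's platform annotation, which can be old, were averaged per gene. Means of the 4 times were fitted to all 8 arrays with limma 3.58.1 in R 4.3.3 (lmFit, eBayes, prior degrees of freedom 3.12, residual 4), with Benjamini-Hochberg adjustment over 18193 genes at 0.05, and a log2 fold is a difference of 2 group means. The number of arrays limits the precision. Summaries were made in Python 3.11.15 with numpy 2.4.6 and pandas 2.3.3. The pipeline was tested on simulated data. The members, gene lists and tests were chosen with earlier results of these data known. Named are every Srsf and Hnrnp gene, the Rbm genes with the smallest p in each direction (6 at day 3 and day 14, 3 at day 7), the 5 with the widest range over probe sets, and a few for their roles. Full statistics are given for up to 5 lower and 5 higher genes at each time. Alternatives were further scalings, other probe set choices, other settings of eBayes, a replicate block, the methods' analysis of variance, and leaving out arrays. Probe sets from mRNA records alone, and leaving out day 3 replicate 2 with day 14 replicate 1, were added after the data were seen.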

Additional observations from a re-analysis of the deposited data

Results flagged for a closer look

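Members whose 2 arrays lay above both control arrays at one time in oxygen and below both at another were looked at again, through the difference between these times in limma. *Rbm26* was higher at day 7 than at day 3 by 0.32 (adjusted p = 0.39) and lower at day 14 than at day 7 (-0.63, adjusted p = 0.41). *Rbm5* had a difference of 0.68 between day 7 and day 3 (adjusted p = 0.301) and of -0.94 between day 14 and day 7 (adjusted p = 0.41). *Rbm42* went the other way, with -0.33 (adjusted p = 0.3) and 0.40 (adjusted p = 0.41). *Hnrnph2* differed by -0.29 (adjusted p = 0.425) and *Hnrnpul1* by 0.49 (adjusted p = 0.475) between day 14 and day 7. None passed the threshold, each time has 2 arrays, and all of these genes were picked by the order of their arrays against shared controls.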

How the results depend on the processing

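With the replicate number of the labels as a block, the medians of the members stayed at -0.14 (day 3), 0.02 (day 7) and -0.07 (day 14), and 0 members passed an adjusted p in limma (lowest 0.437, 1.0 and 0.614). Whether the replicate numbers pair the samples could not be told. Deviations of same-numbered arrays correlated between -0.30 (day 0 with day 14, and day 7 with day 14) and 0.46 (day 3 with day 14). The study tabulates its quality measures by numbered experiments, each with an array of every day. The block changed no call of a member.

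Leaving out each array in turn, the median ran from -0.21 to -0.09 at day 3, from -0.02 to 0.03 at day 7 and from -0.13 to -0.06 at day 14, from 0.11 to 0.19 for day 7 against day 3, from -0.02 to 0.05 for day 14 against day 3, and from -0.16 to -0.07 for day 14 against day 7. The number past an adjusted p was 0 in these fits, except for 3 without day 3 replicate 2 (*Srsf3*, *Rbm20* and *Rbm7*, day 7 against day 3), where 2.86% of all genes passed and the lone day 3 array is assumed to vary like the other times. Without day 3 replicate 2 and day 14 replicate 2 together, the median was -0.21 at day 3, 0.19 for day 7 against day 3 and 0.07 for day 14 against day 3. Without day 3 replicate 2 and day 14 replicate 1 together, chosen after the data were seen, it was -0.21 at day 3, -0.13 at day 14, 0.19 for day 7 against day 3 and -0.16 for day 14 against day 7. A further quantile normalization gave -0.10 at day 3 and -0.14 for day 14 against day 7. Each gene's probe set with the largest SD gave -0.22 at day 3, -0.17 at day 14, 0.33 for day 7 against day 3, -0.06 for day 14 against day 3 and -0.16 for day 14 against day 7. Probe sets in place of genes gave -0.18, -0.16, 0.23 and -0.14 at day 3, at day 14, for day 7 against day 3 and for day 14 against day 7. Probe sets from mRNA records alone gave -0.03 at day 7, -0.03 at day 14 and -0.01 for day 14 against day 7. By mRNA records alone *Rbm39* reversed to 0.66 at day 3 and 0.62 at day 14, and *Hnrnpl* to -0.14 at day 7, which is also its value by the probe set of largest SD. With arrays left out in turn, *Rbm28* ran from -0.62 to 0.09 and *Rbm19* from -0.52 to 0.01 at day 7, and both reversed without day 7 replicate 2. The cause was not tested. The other 224 group values moved by less than the spread between arrays (an SD of 0.04 for the median) or kept their count, and 580 values of single genes kept their direction and side of the threshold. The methods' analysis of variance was run in a simple form without its error model. It gave 5, 2 and 5 members an unadjusted p under 0.05 at day 3, day 7 and day 14, all of them lower. In either direction these are 7.25%, 2.9% and 7.25% of the members, near the 7.17%, 2.89% and 7.23% of all genes. Among all 18193 genes 470, 267 and 454 were lower and 834, 259 and 861 higher by this rule. Counting lower genes alone, the share over all genes was thus smaller than that of the members, a description with no test. After Benjamini-Hochberg adjustment 0 members passed.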
